A study of Mus musculus with 6 samples.

Results

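The genes described here are those of the cytosolic ribosome, the particle that makes proteins in the cytoplasm. They were chosen by name: symbols that start with Rpl or Rps followed by a digit, together with Rpsa, Rplp0, Rplp1 and Rplp2, without the Rps6k kinases and without names marked as pseudogenes. This gave 87 of the 22048 genes in the table, of which 53 carry names of the large subunit and 33 names of the small subunit. The remaining one, Rps19bp1, fits the naming pattern but encodes a protein that binds Rps19, and it was kept out of the comparison of subunits. The rule uses names and no measured value.

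RNA-Seq was done on first-passage neurospheres, floating clusters of hypothalamic neural stem/progenitor cells (NSC/NPCs) from male C57BL/6 fetuses. The HE group (high estradiol, 3 samples) came from dams aged 8 weeks that were given estradiol valerate, an ester of estradiol, at 100 μg/kg/d by mouth from E5.5 to E11.5. The NC group (control, 3 samples) came from dams of the same age and strain given the corn oil solvent on the same days, although the sample labels call these samples untreated. All cells were isolated at E14.5 and grown with EGF, bFGF and B27, and each sample held cells of 2 mice. Whether the samples of one group came from different litters was not stated, so p-values measure the spread between these samples. The cells were in culture after exposure of the dam had ended, so the values describe cultured progenitors and not the fetal hypothalamus itself.

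The depth ran from 16078675 reads on genes in HE3 to 19137059 in NC2. The RPKM of 14 neural progenitor markers summed to 3148 to 3791 in NC and 3021 to 4737 in HE. Vim and Fabp7 held the largest part of the sum in each sample. Of these markers 13 were tested. Their median log2 fold change was -0.39, with 11 of 13 lower in HE. For 5 of them all HE values lay below NC, against 17.9% of all tested genes. HE3 stood apart from the other samples, with a median over all tested genes 0.17 below the NC mean on the log2 scale, where the other samples lay within 0.02 of it, and with the highest RPKM sum. RPKM is the read count divided by the gene length and by the reads of the sample. Differences are given as log2 fold change of HE against NC on the log2(RPKM + 0.1) scale.

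A ribosome has a small subunit, which reads the mRNA, and a large subunit, which joins the amino acids. Each ribosomal protein is normally present in one copy per ribosome, apart from the acidic stalk proteins, and cells make the set in matched amounts. Their mRNAs belong to the most abundant of a cell and typically begin with a C followed by a run of pyrimidines, the 5′ terminal oligopyrimidine (TOP) motif, through which growth signals control their translation. Growing and dividing progenitors have a high demand for ribosomes.

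The motif is shown first because it is the sequence that most ribosomal protein mRNAs are known to share. Each line gives 10 bases before the annotated start of the gene and the 20 bases from the start on, from RefSeq for GRCm38.p6, with the run of pyrimidines in capitals. The first 4 genes carry the run at the annotated start, Rpl27 does not within this window, and Fau and Rack1 encode ribosomal proteins named outside the pattern.
Rps6: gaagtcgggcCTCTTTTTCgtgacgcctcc
Rps18: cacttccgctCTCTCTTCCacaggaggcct
Rplp2: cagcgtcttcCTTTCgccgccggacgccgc
Rps27: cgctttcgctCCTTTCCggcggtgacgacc
Rpl27: ctgttcctgtctgctgctcgtgctgctaat
Fau: gcccccacttCTTCCTCTTTCTTgactcca
Rack1: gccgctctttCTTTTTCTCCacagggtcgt
The stretch of Rps6 lies at chr4:86857348-86857377 on the minus strand, that of Rps18 at chr17:33955646-33955675 on the minus strand, and that of Rplp2 at chr7:141447641-141447670 on the plus strand. Those of Rps27 and Rpl27 lie at chr3:90213629-90213658 on the minus strand and at chr11:101442235-101442264 on the plus strand. Fau is at chr19:6057937-6057966 and Rack1 at chr11:48800350-48800379, both on the plus strand.

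A start sequence was found for 66 of the 87 genes. A C within 5 bases of the annotated start with at least 4 further pyrimidines after it, read on the gene's own strand, was present in 45.5% of them, against 23.7% of the other tested genes and 21.2% of all genes in the RefSeq table. Counted per promoter, it was in 18.4% of all promoters and in 41.0% of those of the set. It was found in 45.7% of the large subunit genes and in 50.0% of the small subunit genes at 10 RPKM or more. The motif CCGGAAG, searched on both strands from 250 bases before to 50 bases after the start, was present in 39.4% of the ribosomal protein genes, in 18.7% of the other tested genes and in 9.93% of all genes. The motif AAGATGG, searched in the same way, was present in 15.2%, 8.01% and 7.28%, and TATAAA in 10.6%, 8.41% and 15.7%. These are matches of letters, and an annotated start can lie a few bases from the start that the cells use.

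In every sample the ribosomal protein genes took up a sizeable part of the reads. The share was 6.86% in NC1, 6.09% in NC2 and 7.74% in NC3, against 8.24% in HE1, 7.82% in HE2 and 9.07% in HE3. All 3 HE samples lay above all 3 NC samples, although HE2 and NC3 were close. The mean was 6.90% ± 0.825 in NC and 8.38% ± 0.635 in HE (SD, n = 3 each). Large subunit genes held 3.59% to 4.57% of the reads in NC and 4.64% to 5.31% in HE, and small subunit genes 2.50% to 3.17% in NC and 3.18% to 3.76% in HE. The names marked as pseudogenes, 16 in all, held 23 to 41 reads per sample, so they took almost none of these reads in the deposited counts.

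**Figure D1:**
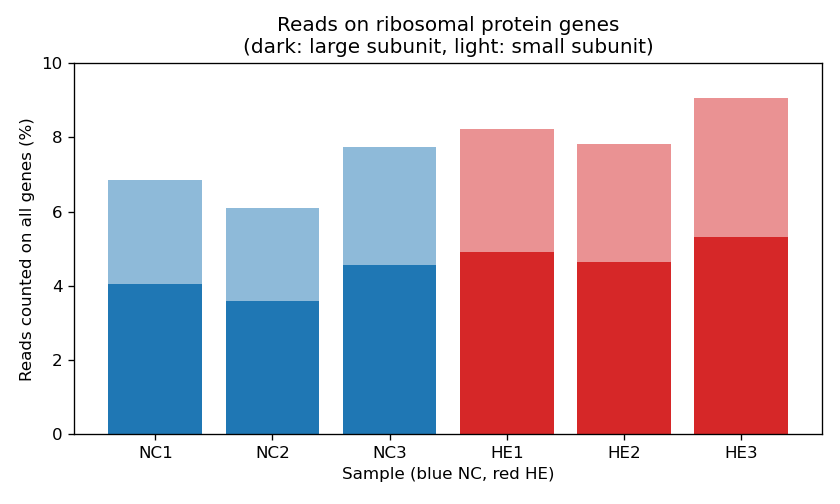
Share of the reads counted on all genes that fell on ribosomal protein genes, in percent, for each of the 6 samples, with the large subunit dark and the small subunit light. The 3 HE bars reach 7.82% to 9.07% and the 3 NC bars 6.09% to 7.74%. Rps19bp1 is not part of the bars.

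On the RPKM scale the same order appeared, with a difference that was small for each gene and had the same sign in nearly the whole set. Of the 87 genes, 82 passed the filter on low counts, 49 of the large and 32 of the small subunit and Rps19bp1. In HE the level of 81 of the 82 (98.8%) was higher than in NC, against 43.8% of all 13952 tested genes. The median log2 fold change was 0.30, where that of all tested genes was -0.06. The range of the ribosomal protein genes was narrow, from -0.10 to 0.63, against -4.14 to 3.58 for all tested genes, and no ribosomal protein gene reached a log2 fold change of 1.

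None of these single differences passed the test. At an adjusted p-value under 0.05 in limma the number was 0 of the 82 genes, and 0% of all tested genes passed this cutoff together with a log2 fold change of 1. The smallest adjusted p-value of the set was 0.195. At an unadjusted p-value under 0.05, 7 genes (8.54%) were higher and 0 lower, where 8.68% of all tested genes were higher and 11.8% lower, so the share of the set was that of the background. With limma's voom on the read counts the number at an unadjusted p-value under 0.05 was 22, or 26.8% against 8.74% of all tested genes, so there the share of the set was above the background, and 0 passed the adjusted cutoff. In 41 genes (50.0%) the 3 HE values all lay above the 3 NC values, against 14.8% of all tested genes. In 0 genes did they all lie below, against 17.9% of all tested genes.

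The samples themselves differed in a common way across the set. Relative to the NC mean, the median of the set was 0.00 in NC1, -0.17 in NC2 and 0.17 in NC3 on the log2 scale, and 0.29 in HE1, 0.20 in HE2 and 0.40 in HE3. The span within NC was thus larger than the step from NC3 to HE2. NC2 had the lowest value of the 6 samples for 70 of the 82 genes. The highest value was in HE3 for 52 genes, in HE1 for 29 and in HE2 for 1, and no NC sample was highest for any. HE2 was above NC3 in 53 genes and HE3 above NC3 in 72. Without NC2 the median log2 fold change of the set was 0.20, and without NC3 it was 0.37.

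**Figure D2:**
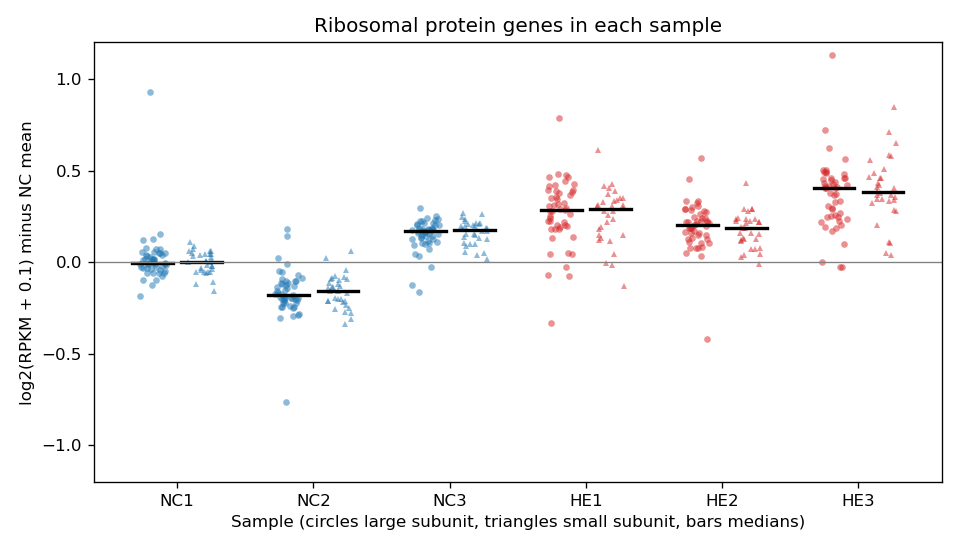
Level of each tested large subunit gene (circles, 49) and small subunit gene (triangles, 32) in each sample, as log2(RPKM + 0.1) minus the mean of the 3 NC samples, with black bars at the medians. The large and small subunit bars of a sample lie side by side, at 0.40 and 0.38 in HE3 and at -0.18 and -0.16 in NC2.

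Large and small subunit genes had nearly the same medians in each sample. Over the groups the median log2 fold change was 0.29 for each, with quartiles of 0.22 and 0.33 for the large and 0.22 and 0.34 for the small subunit. The difference of the median log2 fold changes, large minus small, was 0.0012. Relative to the NC mean, the large and small medians were -0.002 and 0.0032 in NC1 and -0.1806 and -0.1565 in NC2. They were 0.1697 and 0.177 in NC3, 0.2865 and 0.2889 in HE1, 0.2008 and 0.187 in HE2, and 0.4025 and 0.3827 in HE3. This per-sample difference was thus higher in every HE sample than in every NC sample on this scale. Its SD between samples of one group was 0.0109, which is not the spread of the 0.0012. The order did not hold with the trend on gene length removed, where the large and small medians of HE3 were 0.3409 and 0.4391. Nor did it hold without NC1, where those of HE3 were 0.3738 and 0.4025. Among large subunit genes 48 of 49 were higher in HE, and 24 (49.0%) had groups that did not overlap. Among small subunit genes 32 of 32 were higher, and 16 (50.0%) had groups that did not overlap. Over all tested genes, 14.8% had HE above NC without overlap. An unadjusted p-value under 0.05 in limma was reached by 5 large subunit genes (10.2%) and 1 small subunit gene (3.12%), all higher in HE. Over all tested genes, 8.68% were higher at that p-value. With the trend of change on gene length removed, the difference of the medians was 0.05.

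**Figure D3:**
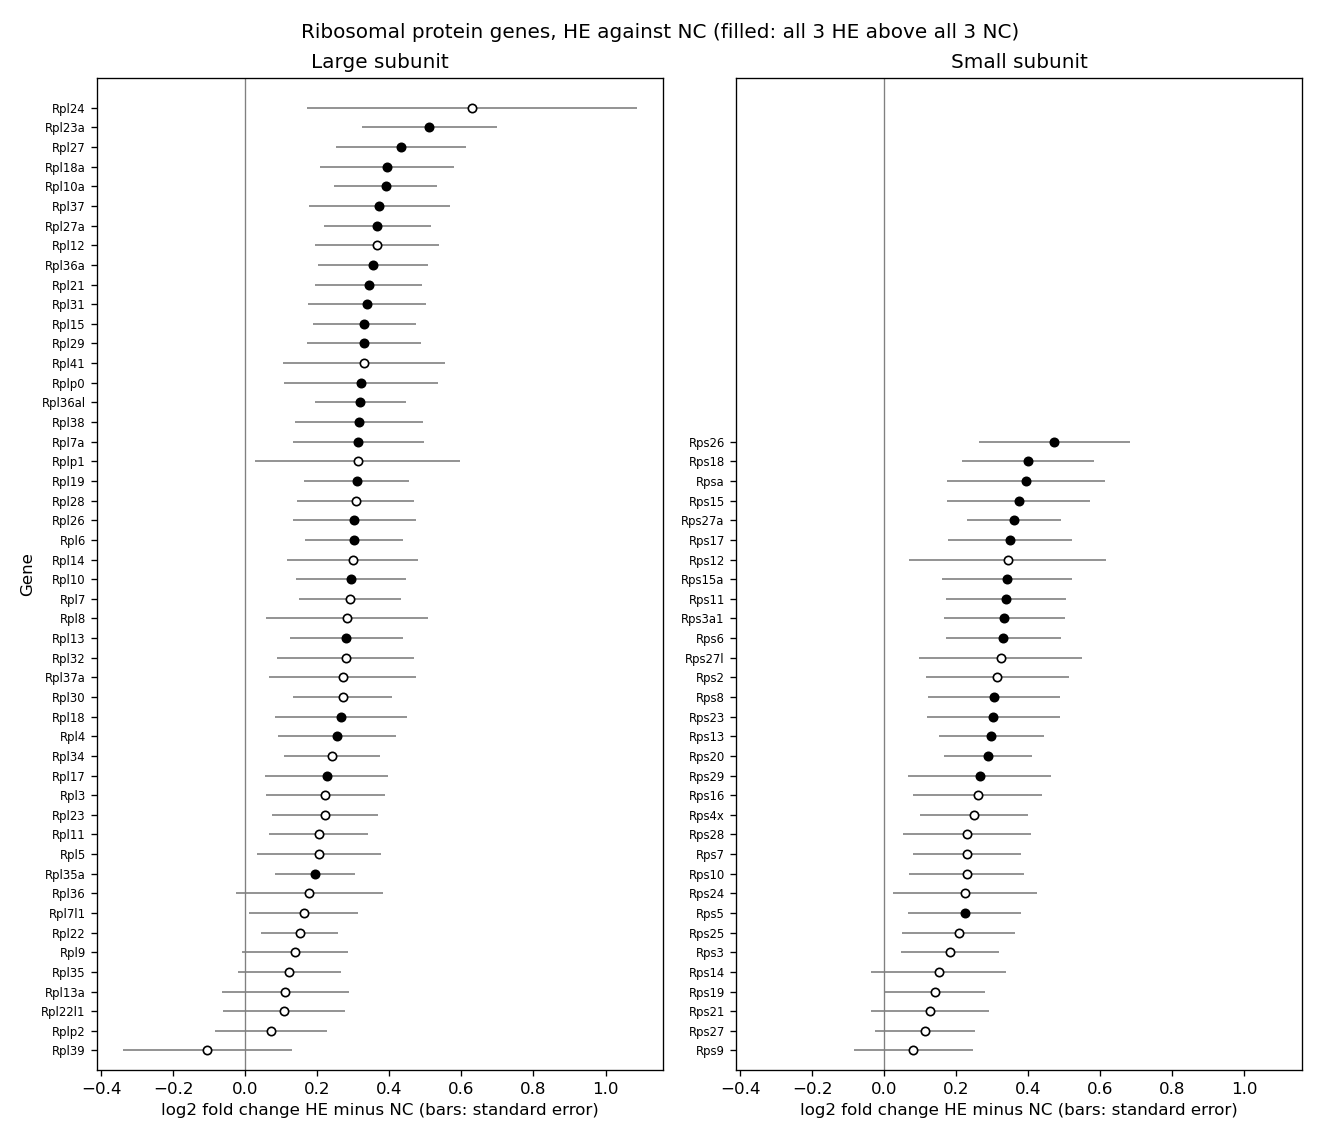
Log2 fold change of HE against NC for each tested large subunit gene (left) and small subunit gene (right), with bars of 1 standard error from limma. Filled circles mark the 24 large and 16 small subunit genes whose 3 HE values all lie above the 3 NC values, and Rpl39 is the one point below 0.

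The stalk of the large subunit, a flexible arm that recruits translation factors, is built from Rplp0 at its base and from Rplp1 and Rplp2. Rplp0 was at 1576, 1398 and 1784 RPKM in NC1 to NC3 and at 1812, 1814 and 2336 RPKM in HE1 to HE3, and the groups did not overlap (log2 fold change 0.32, standard error 0.21, adjusted p = 0.384 in limma, and 0.20 as log2 fold change without HE3). Rplp1 was one of the 3 most abundant genes of the set, at 3456, 2870 and 3766 RPKM in NC and 3657, 3542 and 5522 RPKM in HE, where HE3 stood high and the other HE samples lay within the NC range. Rplp2 was at 439, 347 and 429 RPKM in NC and 384, 426 and 464 RPKM in HE. Its groups overlapped, and its log2 fold change of 0.07 was the smallest of the genes that were higher in HE. Rplp1 and Rplp2 thus had different orders of the samples, since Rplp2 was higher in NC1 than in HE1 and HE2.

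The other most abundant genes were Rps12, a small subunit protein, and Rpl41, which encodes a very short peptide of the large subunit. Rps12 was at 3874, 3033 and 4513 RPKM in NC and 4731, 4281 and 5345 RPKM in HE, and Rpl41 at 2033, 2045 and 2620 RPKM in NC and 2689, 2579 and 3115 RPKM in HE. For both, HE2 lay below NC3, so the groups overlapped. The median level of the tested set was 533 RPKM, against 5.88 RPKM over all tested genes.

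In the small subunit, Rpsa, which also serves as a laminin receptor, was at 1417, 1168 and 1705 RPKM in NC and 1751, 1728 and 2110 RPKM in HE. Rps6, the protein whose phosphorylation is used as a readout of mTOR signaling, was at 462, 402 and 523 RPKM in NC and 571, 536 and 633 RPKM in HE. The groups did not overlap for either gene, with log2 fold changes of 0.39 (standard error 0.22) and 0.33 (standard error 0.16) and adjusted p-values of 0.320 and 0.273 in limma. In both, the step from NC3 to HE2 was small beside the spread within NC, and without NC2 the log2 fold change of Rpsa was 0.26.

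The largest differences were modest. Rpl24 had the largest log2 fold change, 0.63 (standard error 0.46), but it was at only 0.879, 0.203 and 0.359 RPKM in NC and 0.488, 0.662 and 1.03 RPKM in HE, from 4 to 17 reads per sample. Such a level is far from that of the other ribosomal protein genes, and reads of this gene may have been counted elsewhere, which was not tested. Rpl23a, a large subunit protein near the exit of the peptide tunnel, was at 237, 198 and 277 RPKM in NC and 406, 322 and 287 RPKM in HE. All HE samples were above NC, HE1 by far and HE3 barely, and the log2 fold change was 0.51 (limma, standard error 0.19, adjusted p = 0.216). Rps26, a small subunit protein at the mRNA exit, was at 1025, 762 and 1140 RPKM in NC and 1470, 1301 and 1242 RPKM in HE, again without overlap and highest in HE1. Rpl27 was at 360, 278 and 395 RPKM in NC and 446, 416 and 524 RPKM in HE, and Rps18 at 469, 415 and 557 RPKM in NC and 590, 562 and 749 RPKM in HE, both without overlap and highest in HE3. Their log2 fold changes were 0.47 for Rps26, 0.43 for Rpl27 and 0.40 for Rps18. Without NC2 the value was 0.30 for Rps26, 0.29 for Rpl27 and 0.25 for Rpl24.

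The smallest unadjusted p-values belonged to Rps19bp1, Rps27a, Rpl10a, Rpl23a and Rpl36al. Rps19bp1, which is no ribosomal protein, was at 29.3, 29.8 and 31.0 RPKM in NC and 37.5, 37.6 and 40.9 RPKM in HE, with tight groups and a clear gap (log2 fold change 0.36, standard error 0.10, adjusted p = 0.195 in limma). Rps27a, made as a fusion with ubiquitin, was at 132, 109 and 141 RPKM in NC and 170, 155 and 163 RPKM in HE. Rpl10a was at 255, 211 and 279 RPKM in NC and 331, 310 and 329 RPKM in HE. For both the groups did not overlap, and the spread was smaller in HE than in NC. Rpl36al was at 130, 124 and 145 RPKM in NC and 155, 157 and 186 RPKM in HE. Adjusted over all tested genes, these 5 p-values were 0.195 to 0.229.

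At the other end, Rpl39 was the only tested gene of the set with a lower mean log2 level in HE, with a log2 fold change at -0.10 (standard error 0.23). It was at 18.0, 22.6 and 21.1 RPKM in NC and 16.2, 15.3 and 27.8 RPKM in HE, so HE held both the lowest values and the highest, and without HE1 or without HE2 the difference was above 0. Rps9 was at 438, 422 and 476 RPKM in NC and 407, 453 and 565 RPKM in HE, a log2 fold change of 0.08. Rpl13a, a protein that can leave the ribosome to repress certain mRNAs, was at 1337, 1305 and 1479 RPKM in NC and 1421, 1419 and 1615 RPKM in HE, a log2 fold change of 0.11. The groups overlapped for these 3 genes. Scaled to the sum of RPKM in each sample, 8 of the 82 genes had differences below 0, among them Rps9, Rpl13a, Rplp2, Rps27 and Rpl22l1.

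Several ribosomal proteins have a second gene of similar sequence. Rpl22l1, the partner of Rpl22, was low in all samples, at 2.04, 2.42 and 1.94 RPKM in NC and 2.19, 2.58 and 2.13 RPKM in HE, or 1.33% to 1.83% of the pair, against 130, 130 and 144 RPKM in NC and 157, 147 and 144 RPKM in HE for Rpl22. Rps27l, a p53 target that resembles Rps27, was at 82.3, 95.9 and 98.3 RPKM in NC and 94.7, 97.0 and 165 RPKM in HE. HE3 alone stood out, with Rps27l at 23.8% of the pair against 13.5% to 16.7% in the other 5 samples. Rps27 itself was at 528, 478 and 532 RPKM in NC and 595, 538 and 530 RPKM in HE. Without HE3, the groups of Rps27l still overlapped.

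Rpl7l1 was at 39.4, 38.1 and 37.7 RPKM in NC and 36.5, 40.5 and 53.6 RPKM in HE, and Rpl7 at 209, 206 and 249 RPKM in NC and 304, 260 and 249 RPKM in HE. Within HE the pair had opposite orders, since Rpl7 was highest and Rpl7l1 lowest in HE1, and the share of Rpl7l1 ran from 10.7% in HE1 to 17.7% in HE3, around 13.1% to 15.9% in NC. Rpl36al held 34.6% to 38.4% of its pair with Rpl36a in NC and 33.6% to 36.5% in HE, which is an overlap. Rps4x was at 549, 538 and 623 RPKM in NC and 690, 619 and 723 RPKM in HE, with HE2 just below NC3. Genes known mainly from testis or muscle were at or near 0: Rpl39l had 0 reads in every sample, Rpl10l had 1 read in all and Rpl3l 0 to 6 per sample. They failed the filter, as did Rpl6l with 0 to 2 reads and Rps27rt with 0 to 7. Their partners Rpl3, at 598, 525 and 707 RPKM in NC and 721, 676 and 723 RPKM in HE, and Rpl10, at 283, 226 and 273 RPKM in NC and 302, 292 and 364 RPKM in HE, were abundant. How reads that match several copies were counted was not given in the sources used here, so levels of genes with close copies are uncertain.

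To see whether genes of the set moved against each other, the median of the set was subtracted in each sample for the 79 ribosomal protein genes at 10 RPKM or more. The median SD within groups then fell from 0.16 to 0.09 on the log2 scale, so a good part of the spread between samples was common to the genes. After this step 5 genes lay above NC in all HE samples and 1 below, and 56 of 79 were within 0.1 of 0. These counts have no share over all tested genes beside them, so they do not show that single genes left the set. The gene below was Rpl13a, with a relative difference of -0.14. Those with the largest relative differences were Rpl23a (0.26), Rps26 (0.22) and Rpl27 (0.18) above and Rpl39 (-0.35), Rplp2 (-0.18) and Rps9 (-0.17) below. Of these 6, the groups did not overlap in Rpl27. For Rpl23a and Rps26 the higher values were those of HE1 and HE2, and HE3 was -0.07 and 0.01 from the mean of NC.

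HE1 and HE3 also differed in which genes were highest. The examples that follow were chosen after their values were seen. Rpl5, which binds 5S rRNA, was at 280 RPKM in HE1, 237 RPKM in HE2 and 202 RPKM in HE3, where NC spanned 180 to 241 RPKM. Rps24 was at 1620, 1366 and 1324 RPKM in HE1 to HE3, with NC from 1040 to 1414 RPKM. By contrast Rps14 was at 826 and 825 RPKM in HE1 and HE2 and at 1145 RPKM in HE3, with NC from 805 to 853 RPKM, and Rps15a was at 54.4 and 52.5 RPKM in HE1 and HE2 and at 78.8 RPKM in HE3. In all, HE1 was above HE3 in 30 of the 82 genes.

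Short and abundant mRNAs outside the set had similar or larger differences. The genes of the set are short, with a median length of 1560 bases against 4113 over all tested genes, and abundant, and both properties went with a higher log2 fold change elsewhere. Among the other tested genes the median was 0.17 under 1 kb, 0.03 from 1 to 2 kb, -0.03 from 2 to 4 kb and -0.10 above. In the set it was 0.30, 0.31, 0.28 and 0.24 in the same bins, where the last holds only 4 genes. For genes shorter than 1 kb and at 100 RPKM or more, the median was 0.37 over 105 other genes and 0.30 over 24 genes of the set, and 42.9% of the others and 50.0% of the set had HE above NC without overlap. Within the set length and log2 fold change had a Spearman correlation of -0.17 across 82 genes, which share libraries and are not independent. With the trend on length removed, the median of the set was 0.23, that of all tested genes 0.01, and the number of genes without overlap fell to 23, or 28.0% against 16.4% of all tested genes. What moved short and abundant mRNAs was not tested.

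**Figure D4:**
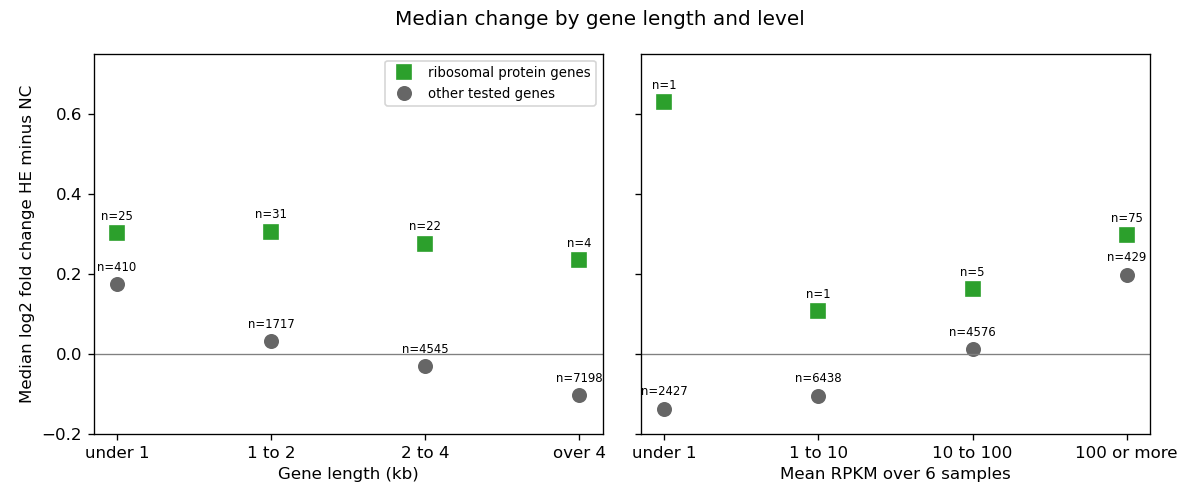
Median log2 fold change of HE against NC by gene length (left) and by mean RPKM (right) for the 82 tested genes of the name rule (green squares, Rps19bp1 included) and all other tested genes (grey circles), with the number of genes at each point. The grey medians fall from 0.17 under 1 kb to -0.10 above 4 kb and climb with level, and the green squares at under 10 RPKM stand for single genes.

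The values also changed with the scale. The RPKM of the set was 16.1%, 14.5% and 17.9% of the sum in NC and 18.3%, 17.6% and 18.1% in HE, and here HE2 lay below NC3. The RPKM sum itself was 340524 to 353657 in NC, and in HE it was 367430 in HE1, 361790 in HE2 and 412361 in HE3. Scaled to this sum, the median log2 fold change was 0.17, 74 of 82 genes were higher, 14 (17.1%, against 8.17% of all tested genes) had groups that did not overlap and 1 (1.22%, against 4.34%) was higher at an unadjusted p-value under 0.05. That scaling moved the median of all tested genes to -0.18. The set lay 0.35 above it, a distance that rescaling whole samples leaves nearly fixed. Under median-of-ratios scaling the median of the set was 0.36, and 34 genes (41.5%, against 16.2% of all tested genes) did not overlap.

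**Figure D5:**
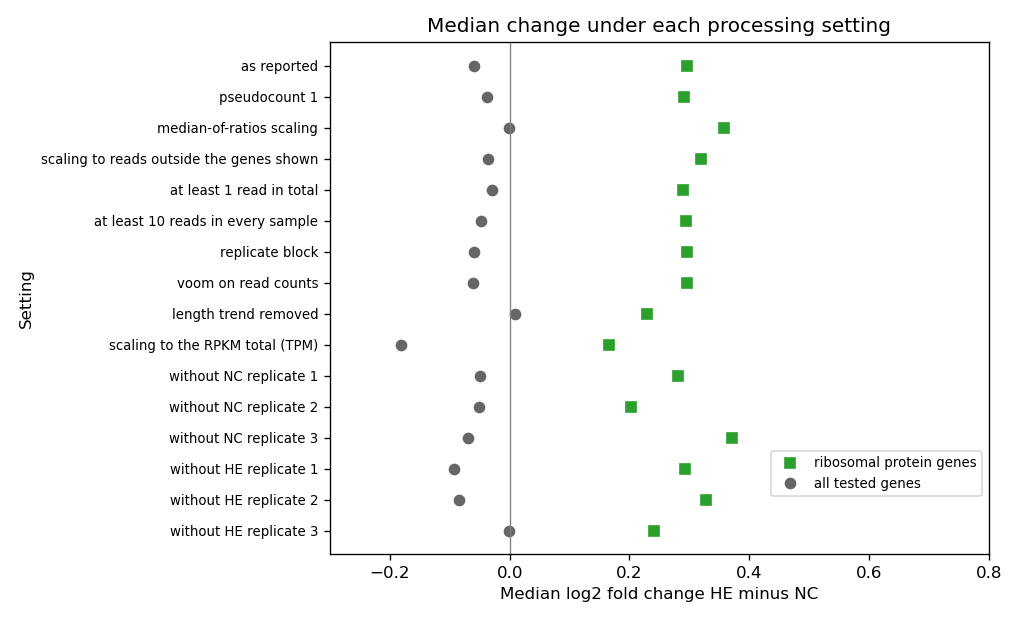
Median log2 fold change of HE against NC of the genes of the name rule that passed the filter (green squares, 81 to 86 genes by setting) and of all tested genes (grey circles) under each processing setting, including each sample left out in turn. The squares run from 0.17 under scaling to the RPKM sum to 0.37 without NC3, and rescaling whole samples shifts squares and circles together.

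Other genes of translation were looked at by the same measures. Of 17 tested mRNAs of elongation factors and other genes known for the TOP motif, 16 had higher levels in HE. Their median log2 fold change was 0.27, with 5 at an unadjusted p-value under 0.05 in that direction in limma and 9 without overlap. Over all tested genes 43.8% were higher in HE, 8.68% at that p-value, and in 14.8% HE lay above NC without overlap. At the top were Eif3e (0.71) and Npm1 (0.63), a chaperone of the nucleolus. Eif3e was at only 1.90 to 2.92 RPKM in NC and 3.51 to 4.64 RPKM in HE, and whether its reads were counted elsewhere was not tested. At the bottom were Eif4b (-0.05) and Eef1g (0.02). Rack1, a protein of the small subunit, was at 365, 286 and 383 RPKM in NC and had a log2 fold change of 0.34, which was 0.21 without NC2 and 0.21 without HE3. Fau, which yields the small subunit protein eS30, was nearly level. It was at 729, 760 and 762 RPKM in NC and 753, 783 and 728 RPKM in HE, so its log2 fold change was 0.01 (standard error 0.14).

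The run of pyrimidines at the start did not sort the ribosomal protein genes by their change. Those at 10 RPKM or more with a run had a median log2 fold change of 0.30 (28 genes), and those without one of 0.28 (31 genes). Of the sequences printed above, Rps18 with a run had 0.40 and Rpl27 without one 0.43, while Rplp2 and Rps27 with a run had 0.07 and 0.11, and Fau with a longer run 0.01.

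Factors that build ribosomes and start translation were also mostly higher. Of 69 ribosome biogenesis factors 63 had higher levels in HE. In limma 21 of the 69 were higher at an unadjusted p-value under 0.05, against 8.68% of all tested genes, and 0 passed the adjusted cutoff. In 31 HE lay above NC without overlap, against 14.8% of all tested genes. The median of their log2 fold changes was 0.28. The largest were Bop1 (0.65), needed for the large subunit rRNA, and Nhp2 (0.60), a protein of the particles that modify rRNA, and the smallest Nat10 (-0.09) and Riok3 (-0.07). Bop1 was at 31.6, 23.8 and 26.7 RPKM in NC and 32.7, 36.9 and 64.8 RPKM in HE, with HE3 far above the rest. Without HE3 the log2 fold change was 0.35 for Bop1 and 0.40 for Nhp2. Of 32 initiation factors 26 were higher, where 43.8% of all tested genes were. In limma 10 were higher at an unadjusted p-value under 0.05, against 8.68% of all tested genes, and 0 passed the adjusted cutoff. In 19 HE lay above NC without overlap, against 14.8% of all tested genes. Their log2 fold change had a median of 0.26 and ran from Eif5 (-0.29) and Eif4g3 (-0.27) to Eif2s1 (0.54) and Eif2b3 (0.60). For Eif4g3 it was -0.10 without HE3 and -0.44 without HE2.

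Of 24 regulators of ribosomal protein mRNAs, 10 were higher and 14 lower, with a median of -0.05. Lowest was Tsc1, a brake on mTOR, at 7.23, 7.04 and 6.22 RPKM in NC and 5.53, 5.28 and 3.50 RPKM in HE, without overlap, and its log2 fold change was -0.53 (limma, adjusted p = 0.217). The next was Rps6kb2, a kinase of Rps6, with -0.49. Highest were Eif4ebp1 (0.30), a repressor of cap-dependent translation, and Myc (0.24). Without HE3 the value was -0.33 for Tsc1 and -0.12 for Rps6kb2, and for Myc it was 0.41 without HE1 and 0.14 without HE2. None of these passed the adjusted cutoff.

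Markers of the cell cycle and of some other kinds of cells also differed between the groups. All 12 cycling markers had higher levels in HE, against 43.8% of all tested genes. In 10 HE lay above NC without overlap, against 14.8% of all tested genes. In limma 10 were higher at an unadjusted p-value under 0.05, against 8.68% of all tested genes, and 0 passed the adjusted cutoff. The median log2 fold change of the 12 was 0.60, and they summed to 272 to 367 RPKM in NC and 418 to 674 RPKM in HE. In its assays on cells, by contrast, the paper reported fewer proliferating progenitors in HE. It also reported fewer and smaller neurospheres and lower cell numbers over passages. How these mRNA levels relate to those assays was not tested. The 8 astrocyte markers had a median of -0.32, and summed to 4127 to 5748 RPKM in NC and 2016 to 4060 RPKM in HE, lowest in HE3. Of 13 neuronal markers 5 were higher, with sums of 125 to 158 RPKM in NC, 143 and 154 RPKM in HE2 and HE1 and 281 RPKM in HE3. Gap43 held the largest part of the sum in each sample, at 202 RPKM in HE3. Other markers went both ways in HE3: Map2, Elavl4 and Nefl were highest there, and Elavl3, Stmn2 and Dcx lowest. The 10 tested mesenchymal markers had a median of 0.78, and the 9 tested oligodendrocyte lineage markers one of -0.20. All 11 listed mesenchymal markers summed to 68.6 to 169 RPKM in NC and 111 to 240 RPKM in HE. All 10 listed oligodendrocyte lineage markers summed to 298 to 330 RPKM in NC and 330 to 517 RPKM in HE. Olig1 and Olig2 held the largest part of this sum in each sample, at 312.5 and 182.0 RPKM in HE3. Of the 9 tested, these were the only genes higher in HE, and 7 were lower, with groups that overlapped. The 12 microglia and macrophage markers summed to 1.61 to 2.52 RPKM in NC and 5.40 to 35.5 RPKM in HE. Lyz2 held the largest part in HE, at 9.44, 2.98 and 25.45 RPKM in HE1 to HE3. Of the 5 tested, 4 were higher and P2ry12 was lower (-0.10). The groups overlapped for P2ry12, Csf1r and Cx3cr1. Endothelial markers summed to 2.79 to 3.81 RPKM in NC and 4.67 to 6.20 RPKM in HE. Erythroid markers summed to 0.606 to 0.725 RPKM in NC and to 0.570, 0.621 and 4.45 RPKM in HE1, HE2 and HE3. Only HE3 lay above NC there, and Hba-a2 and Hbb-y were at 0 in every sample. Alas2, the only erythroid marker tested, had a log2 fold change of -0.65. The part of these cells in the values of the ribosomal protein genes was not tested, and more cells of a kind cannot be told apart from more RNA per cell.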

How the data were processed

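The authors filtered reads for quality and adaptors, mapped them with TopHat2 to the mouse genome (mm10, per the labels) and tested counts with DESeq2. CASAVA 1.7 is named in the submitters' processing notes. The counting tool, the annotation, the use of strand and the treatment of reads with several matches are not given in the sources used here. The deposited table holds RPKM and read counts per gene. Recomputed from the counts, gene lengths and totals, RPKM differed by at most 4.99e-07. Large counts hold commas, and the tests were run on RPKM.

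Gene identifiers were matched to symbols for 21781 of 22048 genes. The filter asked for 15 reads in total and, in 3 samples, for a rate equal to 10 reads at the median depth, and 13952 genes passed. For a gene of 1 kb, 1 read equals 0.0523 to 0.0622 RPKM, and such limits cover counting error only. Groups were compared with limma 3.58.1 (R 4.3.3), with the prior variance following the mean level, on log2(RPKM + 0.1) of the deposited RPKM, with Benjamini-Hochberg adjustment over all tested genes. The fit was tested on simulated data. Medians, overlaps and motif counts came from Python 3.11.15 with pandas 2.3.3 and have no p-value. Start sequences came from RefSeq (GRCm38.p6).

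The members and the lists were chosen with earlier results of these data known. Genes were named by rule: the 5 largest and 5 smallest log2 fold changes, any below 0, the 5 smallest p-values, the 3 highest and 3 lowest levels, genes that failed the filter, paralog pairs, the stalk proteins, Rpsa, Rps6, Fau, Rack1 and the 2 extremes at each end of every translation list. Alternatives were a pseudocount of 1, other filters and scalings, voom, the replicate block, removal of the length trend and each sample left out. Scaling to the RPKM sum and the values relative to the median of the set were added after the data had been seen. LncRNAs were not analysed here. The values of 1 gene outside the set are not reported here.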

Additional observations from a re-analysis of the deposited data

How the results depend on the processing

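Across the settings 0 ribosomal protein genes passed the adjusted cutoff. Their number higher at an unadjusted p-value under 0.05 was 7 as reported (8.54% of the set against 8.68% of all tested genes), 11 when scaled to the reads outside the set (13.4% against 9.76%), 22 with voom (26.8% against 8.74%) and 1 when scaled to the RPKM sum (1.22% against 4.34%). With single samples left out it ran from 1 without NC1 (1.23% against 4.405%) or without NC2 (1.22% against 4.81%) to 19 without NC3 (23.2% against 6.81%), with 2 without HE1 (2.44% against 8.53%) and 2 without HE2 (2.47% against 7.56%). The number without overlap was 41 as reported (50.0% against 14.8%), 23 with the length trend removed (28.0% against 16.4%), 14 when scaled to the RPKM sum (17.1% against 8.17%), and 41 without NC1 (50.6% against 17.9%) to 71 without NC3 (86.6% against 19.3%) with single samples left out. Large minus small was 0.0484 with the length trend removed and ran from -0.00423 without HE1 to 0.0208 without NC1. The number of genes called over the whole table was 0 in each setting but one: without NC3 it was 101.

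Same-numbered HE and NC samples had correlated deviations of 0.156, 0.0869 and 0.0603, not all over 0.1, so the numbers were not taken to pair the samples. Each sample correlated best with its own number, a hint from the data only. With the replicate block 11 genes of the set were higher at an unadjusted p-value under 0.05 (13.4% against 8.75%).

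Differences near 0 changed sign. Scaled to the RPKM sum, the log2 fold change was -0.112 for Eef1g, -0.122 for Fau, -0.0183 for Rpl13a, -0.0171 for Rpl22l1, -0.0581 for Rplp2, -0.0163 for Rps27 and -0.0488 for Rps9. With the length trend removed it was -0.142 for Fau, 0.0089 for Eif4b and 0.0147 for Nat10, and under median-of-ratios scaling 0.0149 for Eif4b. With single samples left out it ran from -0.0736 (without NC2) to 0.0991 (without NC3) for Eef1g, from -0.138 (without HE2) to 0.121 (without HE3) for Eif4b, from -0.0185 (without HE2) to 0.0341 (without HE3) for Fau, from -0.209 (without HE2) to 0.0111 (without HE3) for Nat10, from -0.376 (without HE3) to 0.0523 (without HE2) for Rpl39, from -0.0352 (without NC2) to 0.142 (without HE1) for Rplp2 and from -0.0513 (without HE3) to 0.186 (without HE1) for Rps9. The cause was not tested. Genes of few reads, such as Rpl24, are limited by depth.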
